A study of Mus musculus with 61 samples.

Results

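The comparison described here is the response of D2 nuclei of the mouse nucleus accumbens to a single morphine injection in animals with no earlier morphine, and it covers 14 of the 61 libraries of the series. The comparison set 7 libraries labelled SM (saline during the repeated phase, morphine at the challenge) against 7 labelled SS (saline at both). All animals of both arms were male and carried an LSL-eGFP::L10a reporter together with D2-Cre, so that Cre driven by the dopamine D2 receptor gene switched on a green fluorescent tag in the nuclei of D2-expressing neurons. They received daily saline for 15 days, stayed in the home cage for 30 days, and were killed 1 h after the challenge injection. Nuclei were sorted by fluorescence from frozen accumbens punches, and total RNA of the sorted nuclei was sequenced with a stranded total RNA kit. Doses of 20 and 10 mg/kg appear in the labels, but neither is tied to the morphine challenge, so no result here refers to a dose. The labels do not give the animals' ages or say how many animals were pooled per library, and nothing in them states that the libraries came from separate animals. The p-values therefore measure the spread between these libraries.

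D2 projection neurons of the accumbens express the dopamine D2 receptor, an adenosine receptor and enkephalin, and project mainly to the ventral pallidum. Morphine acts through the mu opioid receptor, a Gi/o-coupled receptor that lowers cyclic AMP and neuronal excitability, and it also raises dopamine release in the accumbens by disinhibiting midbrain dopamine neurons. Dopamine acting on Gi/o-coupled D2 receptors lowers cyclic AMP in these cells, whereas calcium and cyclic AMP signals induce immediate early genes such as Fos, Arc and Egr1 within an hour through factors such as CREB, which binds the cyclic AMP response element. Systemic morphine also raises circulating glucocorticoids in rodents, and the glucocorticoid receptor induces genes such as Fkbp5, Sgk1 and Per1.

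Library totals ran from 15539738 to 19361287 counts in the SM libraries and from 16114716 to 21108769 in the SS libraries, and the means did not differ past the threshold (exact two-sided permutation test, p = 0.147, n = 7 per arm). Counts covered whole gene spans, introns included. A background level was read from 1466 olfactory and vomeronasal receptor genes, whose transcripts belong to sensory neurons of the nose: their counts per kb of gene span averaged 0.537 ± 0.0727 CPM (counts per 1e6 counts) in SM libraries and 0.512 ± 0.0499 CPM in SS libraries (SD, n = 7 each; exact two-sided permutation test, p = 0.451). Were that density uniform over genes, it would account for 53.7 to 79.5% of the counts of an SM library and 59.9 to 74.4% of those of an SS library. Of the genes tested, 8908 (21.7%) lay at 2 times the background density or more. All levels and fold changes below are on the counts as deposited, without subtraction, so for a gene near background a fold change understates any change of its transcript. One library stood apart before any comparison: SM library 1 held 0.0170% of its counts on the mitochondrially encoded genes, against 0.00338 to 0.00583% in the other 6 SM libraries and 0.00281 to 0.00504% in the SS libraries, and several results below are also given without it.

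Of 9 D2 projection neuron markers, 6 lay at 2 times the background density or more, against 4 of 9 D1 markers. Penk, the enkephalin precursor, lay at 82.5 times the background density per kb of gene span, Drd2, the D2 receptor, at 20.4 times, Gpr6, an orphan receptor of striatopallidal neurons, at 16.4 times and Adora2a, an adenosine receptor, at 7.53 times. Of the D1 projection neuron markers, Drd1, the D1 receptor, lay at 4.31 times background, Tac1, the substance P precursor, at 3.26 times, Pdyn, the dynorphin precursor, at 2.19 times and Isl1, a developmental transcription factor, at 1.62 times, while Chrm4, a muscarinic receptor gene on the same list, lay at 9.17 times. No marker of cortical neurons, oligodendrocytes, their precursors, microglia or endothelial and mural cells (9, 12, 8, 10 and 11 genes) reached 2 times background, against 1 of 10 astrocyte and 2 of 15 striatal interneuron markers.

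At the level of single genes, no difference between morphine-challenged and saline-challenged D2 nuclei passed the test. Of 41125 genes tested with edgeR's quasi-likelihood test, 0 (0.0%) had a Benjamini-Hochberg adjusted p under 0.05, and the smallest adjusted p was 0.39, for the unnamed locus Gm30638. At an unadjusted p under 0.05 there were 1333 genes (3.24%), 533 with a log2 fold change above 0 (1.3% of those tested) and 800 with one under 0 (1.95%). The Wald test of DESeq2 called 0 (1379 genes at an unadjusted p under 0.05), limma voom called 0 (1368), and edgeR with each library's background density as a covariate called 0 (3723 genes, 9.05%). Fold changes were centred: 20635 genes (50.2%) had a log2 fold change above 0 and 20490 (49.8%) had one under 0, with a median of 0.0005, or -0.003 with the covariate. Several gene lists split differently between the directions with that covariate, and for those described below both splits or both medians are given. The share of all genes above 0 was counted only in the fit without that covariate. The values of all SM libraries lay above those of all SS libraries in 3 genes (0.00729%), and below them in 16 (0.0389%). In bulk nuclei, fewer cells of a type and less RNA per cell cannot be told apart.

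**Figure D1:**
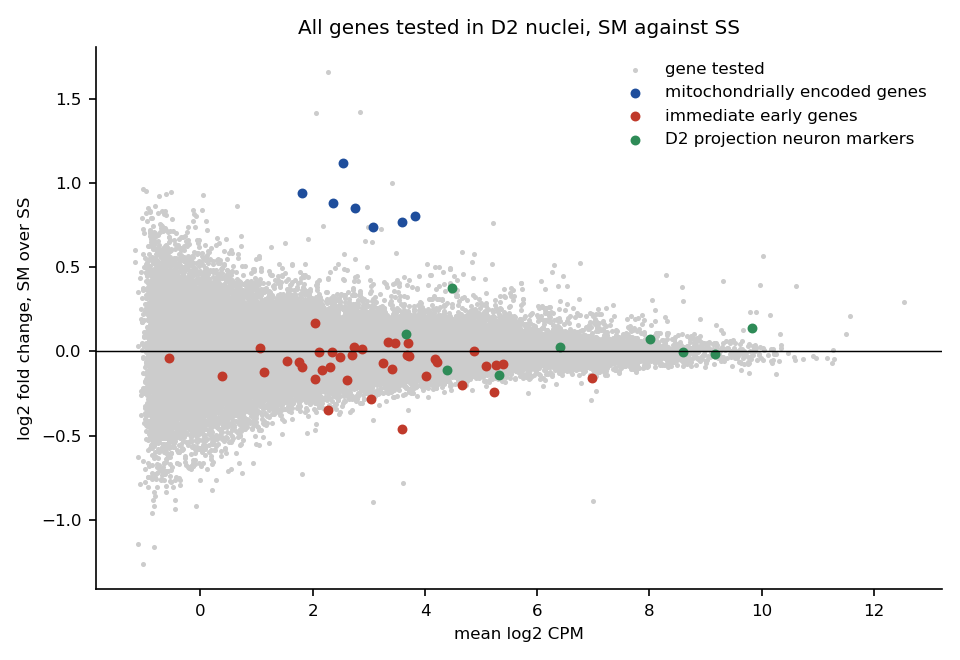
Log2 fold change (SM over SS, y axis) against mean log2 CPM (x axis) for the 41125 genes tested in D2 nuclei; each point is a gene and the horizontal line marks 0. Immediate early genes (red) and D2 projection neuron markers (green) lie within the cloud of genes of like level, and the 7 mitochondrially encoded genes tested (blue) lie between 0.74 and 1.12.

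The 7 libraries per arm bounded most differences in counts. Among the 27697 genes whose mean log2 CPM was 1 or more, the median standard error of the log2 fold change was 0.11, and the 95% interval lay within a 1.5-fold change either way for 93.5% of them and within a 2-fold change for 99.2%. For the 4695 of these that were also at 2 times background or more, where background makes up no more than the rest of the counts, the shares were 74.3% and 95.7%. Differences inside an interval were not excluded for that gene. The intervals are per gene, without adjustment for the number of genes tested, so they do not mark the smallest difference that could have been called.

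Immediate early genes, which neurons transcribe within minutes of activation, were not past the threshold in either direction. All 38 listed genes were tested and none was called; 8 had a log2 fold change above 0 and 30 had one under 0, with a median of -0.07, against 0.0005 over all genes. At an unadjusted p under 0.05 there were 2, both with a log2 fold change under 0. With the background covariate 12 were above and 26 under 0, with a median of -0.05. Their summed level averaged 499 ± 45.5 CPM in SM libraries and 535 ± 55.4 CPM in SS libraries (SD, n = 7 each), and 15 of the 38 lay at 2 times background or more.

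Fos (chr12:85473890-85477273, mm10, plus strand), which encodes an AP-1 subunit and is the usual marker of recent neuronal activity, had 2.82, 3.56 and 5.10 CPM as the lowest, median and highest value in SM libraries, against 3.53, 3.96 and 4.94 CPM in SS libraries. The arms overlapped over nearly their whole range. Its log2 fold change was -0.17 ± 0.15 (SE; unadjusted p = 0.261, edgeR), with a 95% interval of 0.726 to 1.09-fold, and its density was 2.35 times background. After the background expected from its span was taken off, 2.02 ± 0.988 CPM remained in SM libraries and 2.62 ± 0.595 CPM in SS libraries (SD, n = 7 each, before TMM scaling).

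Arc (chr15:74669083-74672570, minus strand), which encodes a postsynaptic protein that promotes removal of AMPA receptors, had the lowest log2 fold change of the list. Its lowest, median and highest values were 3.98, 6.80 and 16.6 CPM in SM libraries and 7.67, 10.7 and 18.3 CPM in SS libraries. Of the SM libraries 1 lay above the SS median, SM library 5, which held the 16.6 CPM. The log2 fold change was -0.46 ± 0.31 (unadjusted p = 0.148, edgeR); without SM library 5 it was -0.73 (unadjusted p = 0.0229), and over the 14 omissions of 1 library it ran from -0.73 to -0.31.

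Other activity genes had smaller values than Arc. Egr1, a zinc finger transcription factor at 7.95 times background, had a log2 fold change of -0.20 ± 0.26, Nr4a1, an orphan nuclear receptor, one of -0.24 ± 0.22, and Npas4, a transcription factor induced by calcium entry, one of -0.14 ± 0.28. Fosb, whose truncated product accumulates in the striatum with repeated drug exposure, lay at 1.96 times background and was at 0.01 ± 0.15 (0.04 without SM library 1), with 7.12 ± 1.33 CPM in SM libraries and 7.05 ± 1.70 CPM in SS libraries (SD, n = 7 each). The only listed value over 0.10 was that of Jund, an AP-1 subunit, at 0.17 (unadjusted p = 0.546, edgeR). All adjusted p-values of the list were 1 (edgeR).

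Maff (chr15:79346621-79359076, plus strand), a small Maf transcription factor, had the smallest p of the list. It ran from 6.16 to 9.29 CPM with a median of 7.68 in SM libraries, and from 7.73 to 11.4 CPM with a median of 9.38 in SS libraries. No SM library exceeded the SS median. The share of all genes with such a pattern, here or below, was not counted. The log2 fold change was -0.28 ± 0.12 (unadjusted p = 0.0202, adjusted p = 1, edgeR), at a density of 1.37 times background.

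Among the 29 immediate early genes with a RefSeq promoter window (250 bases before to 50 after the annotated start, build GRCm38.p6, the same sequence as mm10), 4 held the full cyclic AMP response element TGACGTCA, a palindrome that reads the same on both strands: Arl5b, Btg2, Dusp1 and Maff. The element was in 588 of all 32851 windows (1.79%), a share per window and not per gene, since a gene can have several windows. All 4 genes had log2 fold changes under 0, from -0.28 for Maff to -0.06 for Arl5b, as did 30 of all 38 listed genes, and none passed the test. The windows of Maff, the listed gene with the smallest p, and of Dusp1, a phosphatase that switches off MAP kinases, are printed to show where the CREB site stands, 29 and 143 bases before the start, with the element in capitals and each read 5′ to 3′ on its gene's strand. The Maff window is chr15:79347270-79347569 (plus strand, 1 of 3 annotated for the gene) and the Dusp1 window is chr17:26508423-26508722 (minus strand).
Maff promoter: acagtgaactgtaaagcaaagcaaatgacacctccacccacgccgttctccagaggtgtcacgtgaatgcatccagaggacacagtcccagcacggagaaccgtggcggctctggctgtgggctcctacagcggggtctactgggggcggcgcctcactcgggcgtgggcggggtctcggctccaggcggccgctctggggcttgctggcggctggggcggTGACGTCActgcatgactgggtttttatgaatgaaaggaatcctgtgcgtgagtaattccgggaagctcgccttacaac
Dusp1 promoter: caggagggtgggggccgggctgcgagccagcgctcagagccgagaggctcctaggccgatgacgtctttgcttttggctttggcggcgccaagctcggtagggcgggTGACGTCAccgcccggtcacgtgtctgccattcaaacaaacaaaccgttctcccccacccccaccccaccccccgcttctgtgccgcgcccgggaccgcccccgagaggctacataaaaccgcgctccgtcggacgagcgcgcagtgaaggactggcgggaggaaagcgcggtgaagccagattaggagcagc

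**Figure D2:**
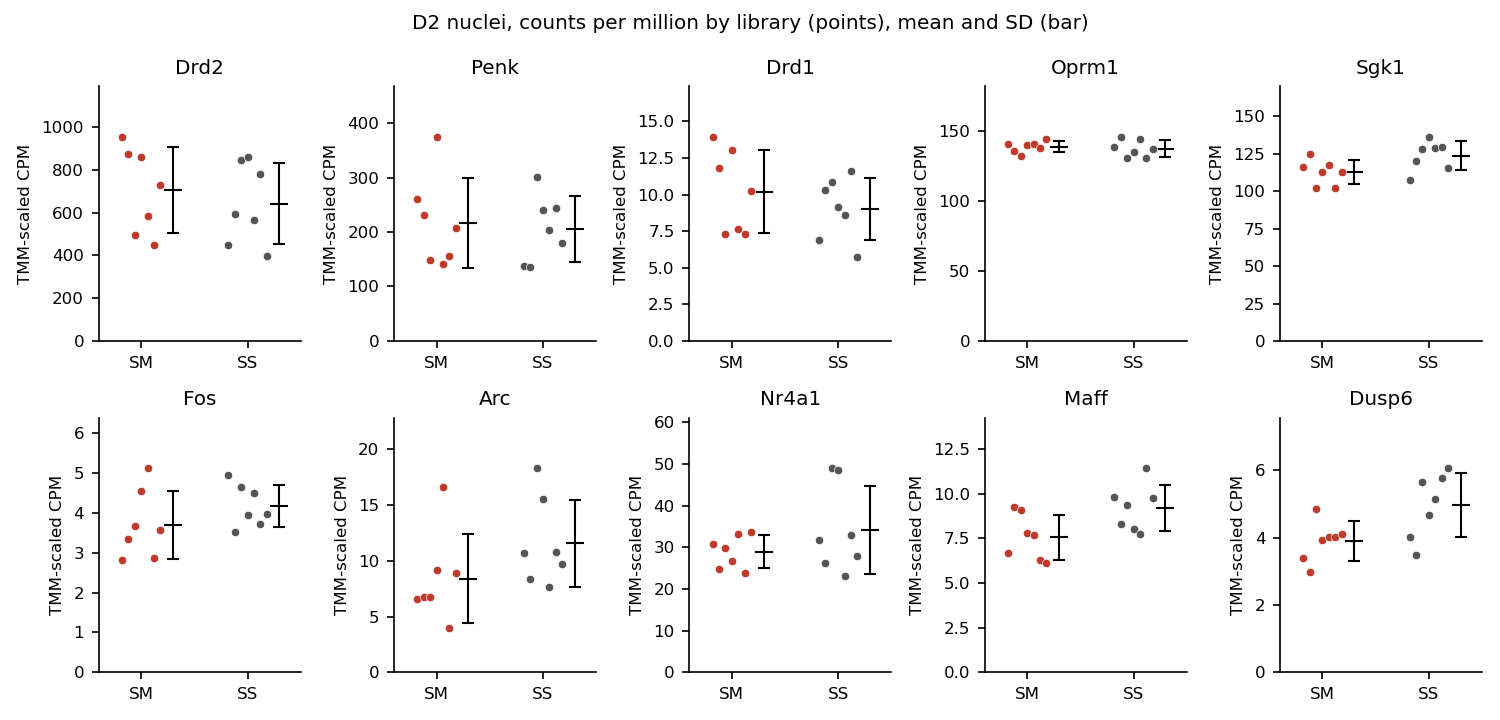
TMM-scaled CPM (y axis) of 10 genes in D2 nuclei, with 1 point per library, 7 SM libraries (red) left of 7 SS libraries (grey), and a bar for the mean and SD. The arms overlap in every panel; Arc shows 1 SM library at 16.6 CPM, and Drd2 and Penk spread over more than a 2-fold range within each arm.

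The feedback regulators of the ERK kinase pathway, which dopamine and glutamate engage in striatal neurons, also passed no test. Of 16 genes, 3 had a log2 fold change above 0 and 13 had one under 0 (median -0.03, or -0.06 without SM library 1), and 1 had an unadjusted p under 0.05. With the background covariate 7 were above and 9 under 0, and none had an unadjusted p under 0.05. Without the covariate that gene was Dusp6, the cytoplasmic ERK phosphatase (chr10:99263231-99267489, plus strand), with 2.98, 4.01 and 4.83 CPM as lowest, median and highest value in SM libraries and 3.48, 5.15 and 6.05 CPM in SS libraries. No SM library exceeded the SS median, and the log2 fold change was -0.35 ± 0.17 (unadjusted p = 0.0478, adjusted p = 1, edgeR; without SM library 1, -0.33, unadjusted p = 0.0718). Dusp6, like Dusp4 and Dusp5, is also on the immediate early list, and is 1 of the 2 genes there with an unadjusted p under 0.05. Next in order on the ERK list were Etv5, an ETS factor induced by ERK signalling, at -0.17 ± 0.09, and Spred2, an inhibitor of Raf activation, at -0.23 ± 0.13. The receptor tyrosine kinase inhibitors Spry1, Spry2 and Spry4 each had a log2 fold change of -0.00.

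Glucocorticoid-responsive genes did not differ past the threshold. Of 30 tested, 12 had a log2 fold change above 0 and 18 had one under 0, with a median of -0.01 and none at an unadjusted p under 0.05. With the background covariate 16 were above and 14 under 0, with a median of 0.01, and 3 had an unadjusted p under 0.05. Fkbp5, a co-chaperone of the glucocorticoid receptor and one of its most sensitive targets, ran from 73.0 to 92.8 CPM with a median of 80.1 in SM libraries and from 75.0 to 91.3 CPM with a median of 80.2 in SS libraries. These are nearly the same ranges, and the 95% interval of the fold was 0.902 to 1.09, at a density of 1.39 times background. That interval bounds the counts with background included, and the transcript less closely. After the background expected from its span was taken off, 20.9 ± 12.9 CPM remained in SM libraries and 25.0 ± 5.46 CPM in SS libraries (SD, n = 7 each, before TMM scaling). Tsc22d3, an anti-inflammatory target of the receptor, had a log2 fold change of -0.00 ± 0.08. It lies on the X chromosome, where the receptor genes had a lower density than on autosomes (0.314 ± 0.0478 CPM per kb in SM libraries and 0.302 ± 0.0339 in SS libraries; SD, n = 7 each), so no multiple of background is given for it. Per1, a clock gene with a glucocorticoid response element at 4.61 times background, had a log2 fold change of -0.11 ± 0.29. Rhob, a small GTPase, had the largest value of the list, with 3.62, 6.88 and 11.3 CPM as lowest, median and highest value in SM libraries, 4.19, 5.30 and 6.53 CPM in SS libraries, and a log2 fold change of 0.50 ± 0.27 (unadjusted p = 0.076, edgeR).

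Sgk1 (chr10:21882184-21999903, plus strand), a kinase that the glucocorticoid receptor induces, had 102, 113 and 125 CPM as lowest, median and highest value in SM libraries, against 108, 128 and 136 CPM in SS libraries. No SM library exceeded the SS median, and the log2 fold change was -0.14 ± 0.11 (unadjusted p = 0.219, edgeR). After the background expected from its span was taken off, 53.7 ± 12.3 CPM remained in SM libraries and 68.9 ± 13.4 CPM in SS libraries (SD, n = 7 each, before TMM scaling). That difference was not tested. The receptor's full palindrome (AGAACA, any 3 bases, then TGTTCT), which was searched on both strands, stood in 3 of 32851 promoter windows (0.00913%). Of the 25 glucocorticoid-responsive genes with a window, 1 held it, Sgk1, in 1 of its 6 windows, chr10:21993640-21993939 (plus strand, GRCm38.p6). That window is printed because Sgk1 is the listed gene that carries the element, 189 bases before the start and in capitals here.
Sgk1 promoter: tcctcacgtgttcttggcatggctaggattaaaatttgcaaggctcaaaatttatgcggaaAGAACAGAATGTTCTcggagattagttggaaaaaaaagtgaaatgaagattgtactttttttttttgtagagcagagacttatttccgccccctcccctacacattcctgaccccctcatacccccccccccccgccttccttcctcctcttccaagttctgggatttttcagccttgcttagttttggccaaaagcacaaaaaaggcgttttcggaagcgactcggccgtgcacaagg

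The 22 circadian clock genes, which include shared targets of cyclic AMP and glucocorticoid signals, were split 11 above and 11 under 0 (median 0.00; -0.02 without SM library 1). With the background covariate 20 were above and 2 under 0 (median 0.07), and none was called. Per2, a core repressor, was at -0.02 ± 0.16, and Dbp, an output factor of the clock, at 0.06 ± 0.39 with a range of 6.42 to 22.1 CPM in SM libraries and 8.63 to 20.9 CPM in SS libraries.

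Genes of the opioid system itself passed no test in either direction. Of the 8 receptor and peptide genes, 5 had a log2 fold change above 0 and 3 had one under 0 (median 0.02; 0.00 without SM library 1), none at an unadjusted p under 0.05. Oprm1, the mu receptor on which morphine acts (chr10:6758506-7038198, plus strand), had 132, 140 and 144 CPM as lowest, median and highest value in SM libraries and 131, 138 and 146 CPM in SS libraries. Its density was 0.993 times background, so these counts could not be told from background, and its interval of 0.946 to 1.08-fold says nothing about the transcript. Oprd1, the delta receptor to which enkephalin binds, lay at 2.11 times background, with a median of 34.0 CPM in SM libraries and 37.1 CPM in SS libraries and a log2 fold change of -0.14 ± 0.16. Oprk1, the kappa receptor for dynorphin, was at 0.04 ± 0.16 (-0.02 without SM library 1) and Oprl1, the nociceptin receptor, at 0.09 ± 0.13.

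Penk ran from 141 to 375 CPM with a median of 208 in SM libraries, and from 135 to 300 CPM with a median of 204 in SS libraries. Its log2 fold change was 0.07 ± 0.27 (unadjusted p = 0.784, edgeR), an interval of 0.716 to 1.55-fold, and 0.02 without SM library 1. Pdyn, at 2.19 times background, was at 0.03 ± 0.10 (0.06 without SM library 1), and Pomc, the beta-endorphin precursor, had the smallest p of the group at -0.12 ± 0.12 (unadjusted p = 0.31, edgeR). Downstream of the receptors, the 26 Gi/o signalling genes, which include G protein subunits, regulators of G protein signalling and potassium channels they open, were split 12 above and 14 under 0 with a median of 0.00. The split was 7 above and 19 under 0 without SM library 1, and 20 above and 6 under 0 with the background covariate (median 0.08).

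**Figure D3:**
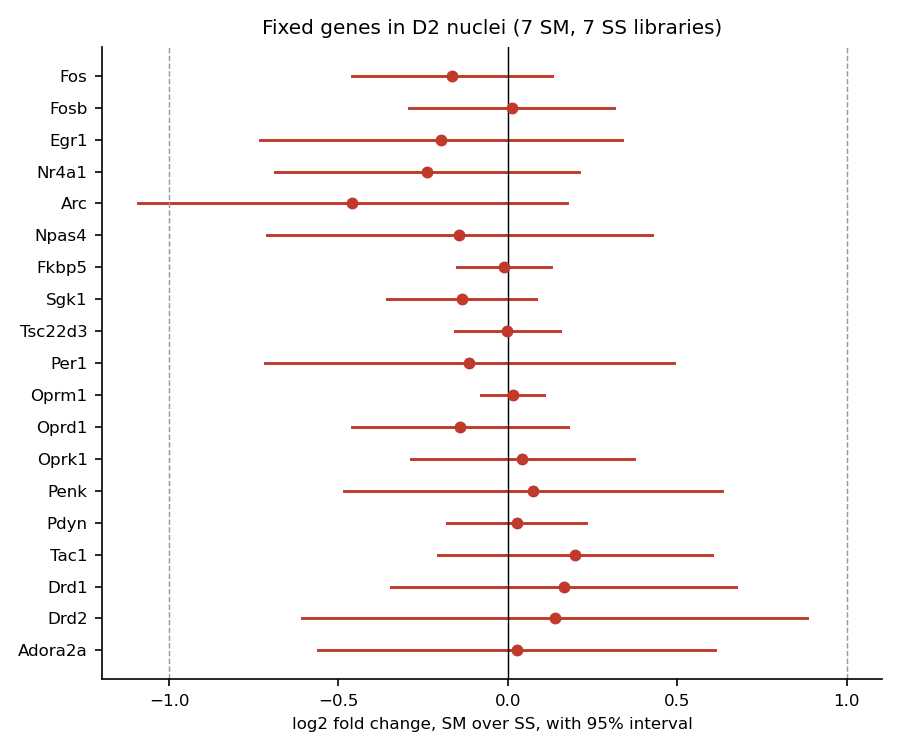
Log2 fold change (SM over SS, x axis) with its 95% interval from the edgeR fit for 19 genes chosen by name; dashed lines mark a 2-fold change either way. All 19 intervals cover 0 and all but that of Arc, which runs from -1.09 to 0.17, lie inside the dashed lines.

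Cell identity genes spread widely within each arm and passed no test between them. Drd2 (chr9:49340627-49408177, plus strand) had 447, 728 and 955 CPM as lowest, median and highest value in SM libraries, against 398, 594 and 862 CPM in SS libraries. The overlap was nearly complete, and the log2 fold change was 0.14 ± 0.36 (unadjusted p = 0.706, edgeR), or 0.05 without SM library 1, which held the 955 CPM. Adora2a was at 0.03 ± 0.28 (-0.05 without SM library 1) and Gpr6, the listed D2 marker with the smallest p, at 0.38 ± 0.23, with 21.1 ± 4.74 CPM in SM libraries and 16.2 ± 4.98 CPM in SS libraries (SD, n = 7 each; unadjusted p = 0.116, edgeR). The 9 D2 markers tested had a median of 0.03 and the 9 D1 markers one of 0.03. Without SM library 1 the medians were -0.02 and 0.03, and with the background covariate they were 0.18 (7 above and 2 under 0, against 5 and 4 without it) and 0.07 (6 above and 3 under 0, against 8 and 1 without it). Drd1 ran from 7.29 to 13.9 CPM in SM libraries and from 5.70 to 11.6 CPM in SS libraries, with a log2 fold change of 0.16 ± 0.25 (0.07 without SM library 1).

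The cyclic AMP and dopamine cascade of projection neurons also passed no test. Of 36 genes, 23 had a log2 fold change above 0 and 13 had one under 0, with a median of 0.02 and none at an unadjusted p under 0.05. The split was 18 and 18 without SM library 1 (median 0.00), and 32 above and 4 under 0 with the background covariate (median 0.10). Ppp1r1b, which encodes the phosphatase inhibitor DARPP-32, had 26.4, 49.9 and 67.1 CPM as lowest, median and highest value in SM libraries and 31.0, 36.3 and 61.6 CPM in SS libraries, a log2 fold change of 0.23 ± 0.32 (0.15 without SM library 1). At the ends of this group stood Ppp1ca, a phosphatase catalytic subunit, at 0.26, and Prkar2a, a regulatory subunit of protein kinase A, at -0.09 (unadjusted p = 0.16, edgeR; -0.05 without SM library 1).

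Genes of synapses, channels and chromatin, on which lasting drug effects are often sought, had medians within 0.02 of 0. This held for glutamate receptors (24 genes), GABA receptors and handling (19), potassium, sodium and calcium channels (45), postsynaptic scaffolds (24), adhesion genes (47), vesicle release genes (32) and chromatin regulators (44). With the background covariate their medians were 0.04 to 0.11 and most members lay above 0: 21 of 24 glutamate receptor genes, 16 of 19 GABA genes, 40 of 45 channels, 19 of 24 scaffolds, 40 of 47 adhesion genes, 28 of 32 vesicle genes and 38 of 44 chromatin regulators, against 11, 9, 22, 13, 28, 19 and 25 without it. The shift was not particular to these lists. In the same fit 20 of 22 clock genes, 32 of 36 cyclic AMP and dopamine genes and 28 of 31 proteasome genes also lay above 0. Of the interferon-responsive genes 5 of 20 did, and the median over all genes was -0.003. None of the synapse, channel and chromatin genes was called in the fit without the covariate or with it, and in the fit without it 1 had an unadjusted p under 0.05: Gabra5, a GABA-A receptor subunit, at -0.10 ± 0.05 (unadjusted p = 0.0478, edgeR) and 0.759 times background. Bdnf, the neurotrophin of cortical inputs that striatal cells transcribe little, was at 0.20 ± 0.10 (unadjusted p = 0.053, edgeR) and 1.10 times background. Rab3a, a vesicle GTPase at 7.89 times background, was at 0.33 ± 0.25. Stress programmes were similar: the medians of heat shock (24 genes), unfolded protein response (16), hypoxia (18), FOXO and fasting-responsive (20), neurotrophin and growth factor (23) and proteasome genes (31) ran from -0.02 to 0.05, and that of 20 interferon-responsive genes was -0.05. With the covariate these medians were 0.11, 0.11, 0.05, 0.03, -0.01 and 0.09 in the same order, and -0.07 for the interferon-responsive genes. Hspb1, a small heat shock protein, had the smallest p among these at -0.68 ± 0.23 (unadjusted p = 0.00505, adjusted p = 1, edgeR), at 1.00 times background and with at most 1.29 CPM in any library of either arm. With the covariate the FOXO list split 13 above and 7 under 0, against 8 and 12 without it. The hypoxia list split 12 and 6, against 8 and 10.

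**Figure D4:**
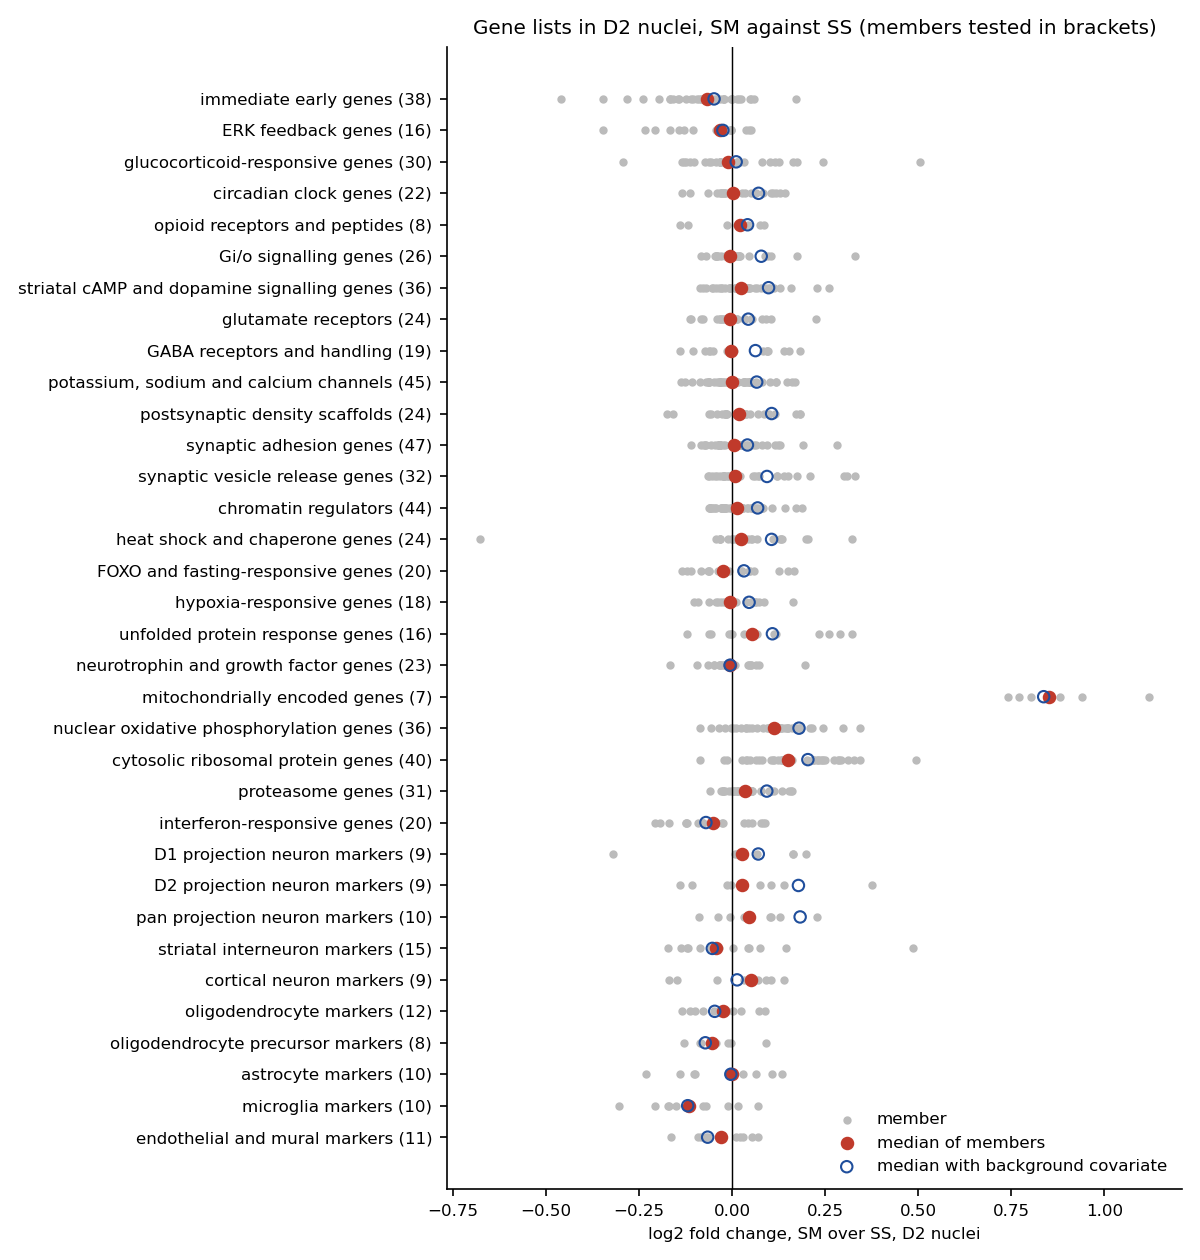
Log2 fold change (SM over SS, x axis) of the tested members of 34 gene lists (grey points, 1 row per list, number tested in brackets), with each list's median (red) and its median when the background density of each library was a covariate (open blue). All medians lie within 0.2 of 0 in the fit without the covariate except that of the mitochondrially encoded genes, at 0.85.

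Translation and respiration genes lay mostly above 0. Of 40 cytosolic ribosomal protein genes 37 had a log2 fold change above 0 (median 0.15; 50.2% of all genes tested were above 0), and none was called. At an unadjusted p under 0.05 there was 1. The summed level of the list ran from 216 to 392 CPM in SM libraries and from 224 to 288 CPM in SS libraries, so the arms overlapped. Of 36 nuclear genes of oxidative phosphorylation 31 were above 0 (median 0.11), among them Cox4i1, a cytochrome oxidase subunit, at 0.30 ± 0.17 and Atp5b, the ATP synthase beta subunit, at 0.24 ± 0.21. None of the 36 had an unadjusted p under 0.05. Without SM library 1 the medians were 0.13 and 0.07, with 36 of 40 and 29 of 36 genes above 0. Over the 14 omissions of 1 library the ribosomal median ran from 0.08 to 0.22 and the respiratory one from 0.03 to 0.15. Both were lowest without SM library 4, with 29 of 40 and 23 of 36 genes above 0; the respiratory median was 0.07 without SS library 1. With the background covariate and all libraries, 38 of 40 and 33 of 36 genes were above 0, with medians of 0.20 and 0.18. In that fit 13 and 11 had an unadjusted p under 0.05, all above 0, against 9.05% of all genes, and none was called. Ribosomal protein genes have many processed copies, so their counts are uncertain where reads could be split between copies.

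Mitochondrially encoded genes gave the largest list median, and it rested largely on 1 library. Of 13 genes 7 passed the filter on low counts; all 7 had a log2 fold change above 0 (median 0.85) and an unadjusted p under 0.05, and none was called. mt-Nd1, a subunit of respiratory complex I, had 3.40, 4.72 and 20.1 CPM as lowest, median and highest value in SM libraries, against 2.67, 3.08 and 3.88 CPM in SS libraries, and its log2 fold change was 1.12 ± 0.38 (unadjusted p = 0.00621, adjusted p = 1, edgeR). The 20.1 CPM belonged to SM library 1, whose summed level of the list was 167 CPM, against 31.9 to 53.4 CPM in the other SM libraries and 26.5 to 48.8 CPM in the SS libraries. Without that library the median was 0.34, mt-Nd1 was at 0.57 (unadjusted p = 0.0598), and 0 of the 7 had an unadjusted p under 0.05. With the background covariate and all libraries, the median was 0.84, and all 7 were above 0 at an unadjusted p under 0.05, with none called. These transcripts are made outside the nucleus, and the part of carried-over cytoplasm in their counts was not tested.

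**Figure D5:**
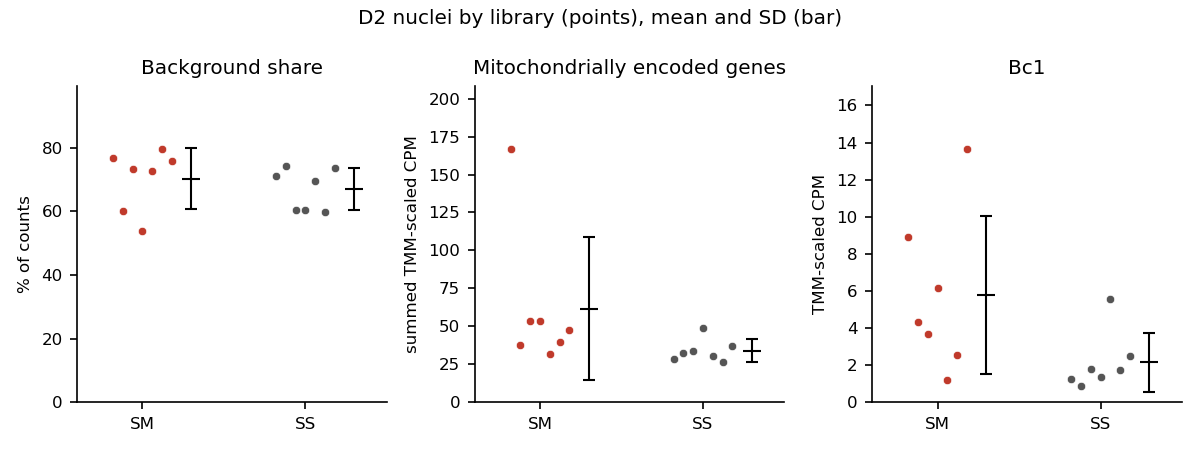
Per-library values in D2 nuclei (1 point per library, 7 SM left of 7 SS, bars for mean and SD): the share of counts a uniform background would take (%), the summed TMM-scaled CPM of mitochondrially encoded genes, and the TMM-scaled CPM of Bc1. SM library 1 stands at 167 CPM in the middle panel, and the background share spans 53.7 to 79.5% in SM libraries and 59.9 to 74.4% in SS libraries.

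Markers of other cells did not separate the arms past the threshold. The 10 microglia markers had the lowest median of the marker lists, -0.12, with 2 genes above 0 and 8 under 0, and a summed level of 167 to 200 CPM in SM libraries and 185 to 207 CPM in SS libraries. Csf1r, the microglial growth factor receptor, was at -0.17 ± 0.08 (unadjusted p = 0.044, edgeR) and C1qa, a complement subunit, at -0.30 ± 0.16, both under 2 times background. Gfap, the astrocyte filament protein, was at -0.23 ± 0.10 (unadjusted p = 0.0261, edgeR) and 1.67 times background, while the 10 astrocyte markers together had a median of 0.00. Medians of oligodendrocyte, precursor, endothelial and mural, interneuron and cortical markers ran from -0.05 to 0.05, and from -0.07 to 0.01 with the background covariate.

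A ranking by p was made among genes with an assigned name whose mean log2 CPM was 1 or more, and every adjusted p of the leading genes named here was 1 (edgeR). In the direction above 0 the first was Lonrf3, a ubiquitin ligase gene on the X chromosome (chrX:36328353-36362341, plus strand), with 13.9, 16.3 and 18.9 CPM as lowest, median and highest value in SM libraries and 12.4, 13.6 and 14.3 CPM in SS libraries. All 7 SM libraries exceeded the SS median, with a log2 fold change of 0.29 ± 0.07 (unadjusted p = 0.000287, edgeR). Zscan12, a zinc finger gene, followed at 0.27 ± 0.08 and 1.63 times background, and Med30, a Mediator subunit, was at 0.24 ± 0.07. The other 7 were Kap, Mup21, Tpm3-rs7, Cldn34c4 and the olfactory receptors Olfr1033, Olfr1288 and Olfr112, at 0.31 to 0.45. Of these 7, Cldn34c4 is on the X chromosome, and the 6 on autosomes lay at 0.745 to 2.17 times background. Olfr1033, Olfr1288 and Olfr112 belong to the receptor genes from which the background was read, and lay at 0.93, 0.745 and 0.879 times it. Tpm3-rs7, at 0.45, was at 0.33 without SM library 1. Several of them belong to multigene families in which reads may be split between near copies.

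In the direction under 0 the first was Smim11, which encodes a small membrane protein (chr16:92301286-92313041, plus strand). It had 7.60, 8.49 and 9.71 CPM as lowest, median and highest value in SM libraries and 9.80, 10.7 and 11.1 CPM in SS libraries, so the arms did not overlap, and its log2 fold change was -0.30 ± 0.07 (unadjusted p = 0.000303, edgeR). The arms also did not overlap for Exoc3l, a relative of an exocyst subunit, with 4.54 ± 0.280 CPM in SM libraries and 5.70 ± 0.499 CPM in SS libraries (SD, n = 7 each). Non-overlap was found in 0.0389% of the genes tested in this direction. Galr2, a galanin receptor, was at -0.49 ± 0.15, Cacng6, a calcium channel gamma subunit, at -0.32 ± 0.10, and Lcn2, an iron-binding protein of inflamed glia, at -0.51 ± 0.17. Zp1, Spryd4, Bmp10 and Mirt1 lay between -0.45 and -0.27. These 9 genes were at 1.20 to 2.11 times background.

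Whether the response in D2 nuclei differed from that in D1 nuclei was tested in one fit of all 61 libraries. Of 42870 genes 0 (0.0%) had an adjusted p under 0.05 (edgeR; smallest 0.885), with 1053 (2.46%) at an unadjusted p under 0.05, while DESeq2 called 0 (2439 unadjusted) and limma voom called 0 (1020 unadjusted). The difference with the smallest p above 0 among named genes was that of Slc17a7, the cortical vesicular glutamate transporter, at 2.52 ± 0.68 (unadjusted p = 0.000479). Its log2 fold change was 0.09 in D2 nuclei and -2.44 in D1 nuclei, and without D1 SS library 1 the difference was 0.56. For Ccn2, a matricellular protein gene, the difference was 2.71, or 0.47 without that library. Below 0 the first were Il20, a cytokine, at -0.78 ± 0.20, and Klk7, a protease, at -0.63 ± 0.19. Among the activity genes, Fos differed by 0.20 ± 0.30 and Arc by 0.40 ± 0.59, or by -0.05 and -0.33 without D1 SS library 1.

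The challenge response after saline history was also set against the same challenge after morphine history, with 7 D2 libraries given morphine after repeated morphine (MM) and 8 given saline after repeated morphine (MS). Of 41125 genes 0 (0.0%) differed at an adjusted p under 0.05 (edgeR; smallest 0.991), with 1464 (3.56%) at an unadjusted p under 0.05; DESeq2 and limma voom called 0, with 1429 and 1440. Dtymk, a thymidylate kinase gene, had the smallest p above 0 at 0.51 ± 0.13, with a log2 fold change of 0.26 after saline history and -0.25 after morphine history. Syt15, a synaptotagmin, had the smallest p under 0 at -0.59 ± 0.15. Egr1 had a log2 fold change of -0.20 after saline history and -1.23 after morphine history, a difference of 1.04 ± 0.36 (unadjusted p = 0.00823, adjusted p = 0.991, edgeR). Both interactions use the same SM and SS libraries as the main comparison, and no difference between responses passed the test.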

How the data were processed

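The counts per gene were deposited as whole numbers; per the submitters' processing notes the tools were featureCounts and DESeq2 and the build mm10. No aligner, annotation release, version or strand setting is given in the sources used here, so overlapping and antisense genes may share counts. The authors' deposited FPKM values served only to recover gene lengths, which equalled the whole gene span in GENCODE M21 for 54281 of 54281 identifiers with the same version (relative tolerance 1e-06). Of 55401 identifiers 55141 matched a symbol.

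The main test was edgeR 4.0.16 (R 4.3.3), quasi-likelihood with robust fitting, TMM scaling and filterByExpr by group, on all 29 D2 libraries with the contrast SM minus SS, called at an adjusted p under 0.05. Intervals are 95%. Levels are TMM-scaled CPM; "times background" is CPM per kb of gene span over that of the receptor genes. The fit was also run on counts simulated from the spread estimated here, without outlying libraries or differences in background. That run cannot show how the fit behaves with such features, and its outcome is not reported here. Alternatives were DESeq2 1.42.0, limma 3.58.1 (voom), DESeq2 size factors, no filter, a replicate block, a background covariate, SM and SS libraries only, and each library left out. The members and gene lists were chosen with earlier results of these data known. Named genes were the 10 smallest p in each direction at a mean of at least 1 log2 CPM (predicted, Rik and clone-style symbols, mt-, Rpl and Rps genes left out), the smallest p of each list, and 19 genes fixed by name; a few of these genes are not reported here. Same-numbered SM and SS libraries did not deviate together throughout (correlations from -0.61 to 0.73), so the numbers were not used as pairs. Gpr52 and Ddit3 gave no usable row and were left out of their lists.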

Additional observations from a re-analysis of the deposited data

Results flagged for a closer look

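Of 156 sets of 7 values tested, 9 had a lowest or highest library whose gap to its neighbour exceeded 0.568 of the range; chance gives about 1 in 20. SM library 1 accounted for most of them, counting both its mitochondrial share and mt-Nd1, which is part of that share. It held 0.0170% of its counts on mitochondrially encoded genes, against 0.00338 to 0.00583% in the other SM libraries, and 20.15 CPM of mt-Nd1, against 3.40 to 6.71. The same library was lowest for Kdm2b, a histone demethylase, at 74.8 CPM against 90.5 to 97.7, and for Prkar2a at 39.99 CPM against 47.9 to 53.4, and highest for Tpm3-rs7 at 4.04 CPM against 2.12 to 2.80. Without it the log2 fold change was 0.57 for mt-Nd1, against 1.12 with it, -0.02 for Kdm2b, against -0.06, -0.05 for Prkar2a, against -0.09, and 0.33 for Tpm3-rs7, against 0.45.

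Arc stood at 16.65 CPM in SM library 5, against 3.98 to 9.20 CPM in the other SM libraries. Oprk1 stood at 18.99 CPM in SS library 3, against 13.4 to 15.1 CPM in the other SS libraries. In SS library 5, Zscan12 stood at 8.735 CPM against 6.26 to 7.15, and Bc1 at 5.60 CPM against 0.907 to 2.50. What set these single libraries apart was not tested.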

How the results depend on the processing

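All counts of genes called were 0 under each alternative run, for the main comparison and both interactions. Genes at an unadjusted p under 0.05 in the main comparison numbered 1333, against 3723 (9.05%) with the background covariate, 2164 with that covariate and without SM library 1 (added after seeing the data), 1411 with the replicate block, 1467 with SM and SS libraries only, 1976 of 55284 with no filter, and 987 to 1938 with 1 library left out; the smallest adjusted p of any omission was 0.0636, without SS library 3. With the background covariate the D2 minus D1 interaction had 5420 and the history interaction 3946; the block gave the history interaction 1859. The sign of near-zero values turned: Fkbp5 was 0.0073 with the covariate and 0.025 with the covariate and without SM library 1, Tsc22d3 0.0029 with DESeq2 size factors, 0.0035 with DESeq2 and 0.0057 with SM and SS libraries only, Per1 0.043 with the covariate, and Adora2a -0.012 with the replicate block; the cause was not tested. Leaving out 1 library turned the sign of 9 genes, in 35 of their omissions (14 per gene): Adora2a (-0.058 to 0.144), Fkbp5 (-0.045 to 0.017), Fosb (-0.074 to 0.096), Npas4 (-0.28 to 0.012), Oprk1 (-0.024 to 0.107), Pdyn (-0.033 to 0.082), Penk (-0.11 to 0.19), Per1 (-0.24 to 0.025) and Tsc22d3 (-0.033 to 0.026). The difference in background density was 0.0249 CPM per kb, and 0.0132 to 0.0459 with 1 library left out. Whether background or depth limits the genes under 2 times background was not tested.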

Other observations

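Bc1, a short cytoplasmic RNA of neuronal dendrites transcribed by RNA polymerase III (chr7:144914470-144914637), was chosen after its values were seen. It had 1.19, 4.31 and 13.6 CPM as lowest, median and highest value in SM libraries and 0.907, 1.72 and 5.60 CPM in SS libraries. Of the 7 SM libraries 6 lay above the SS median, and the log2 fold change was 1.42 ± 0.47 (unadjusted p = 0.00607, adjusted p = 1, edgeR), or 1.28 without SM library 1. The response in D2 nuclei minus that in D1 nuclei was 2.15 with D1 SS library 1 included (unadjusted p = 0.00366, edgeR). This difference did not pass the test, since the smallest adjusted p of that interaction over all genes was 0.885 (edgeR).

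Gm47283, a gene model on the Y chromosome (chrY:90784738-90816464), was also chosen after its values were seen. It averaged 77.1 ± 20.5 CPM in SM libraries and 142 ± 55.7 CPM in SS libraries (SD, n = 7 each), with no SM library above the SS median and a log2 fold change of -0.89 ± 0.26 (unadjusted p = 0.00233, adjusted p = 1, edgeR).

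The receptor genes that set the background had different densities by chromosome. The 9 on the X chromosome averaged 0.314 ± 0.0478 CPM per kb in SM libraries and 0.302 ± 0.0339 in SS libraries, and the 1457 on autosomes 0.538 ± 0.0729 in SM libraries and 0.513 ± 0.04998 in SS libraries (SD, n = 7 each).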
